A study of Mus musculus with 15 samples.

Results

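The contacts of a bait at Lpin1 were compared between a B lymphocyte cell line and 3T3-L1, mouse fibroblasts that turn into fat cells when given hormones. The assay, 4C-seq, fixes chromatin, joins DNA ends that lie close together and counts which HindIII sites were joined to the bait, so that a site with many reads is one the bait often met. The 9 files with this bait, from 5 samples, were taken from the 27 files of the series, which also hold baits at Pparg and Ifng. The B cell sample had 1 file and came from a line that the labels describe no further. The 3T3-L1 samples had 2 files for each of days 0, 1, 2 and 6 of differentiation, labelled as preadipocytes on day 0, as intermediate on days 1 and 2 and as mature adipocytes on day 6. Cells were 2 days past confluence on day 0, when dexamethasone, insulin and 3-isobutyl-1-methylxanthine were added in medium with serum. Insulin and serum were given again on day 2. All cells, B cells included, were fixed with formaldehyde, and their chromatin was cut with HindIII, ligated, cut with DpnII, circularised and amplified from the bait. The labels do not say whether the 2 files of a day were grown separately. All p-values below refer to the spread from file to file, which may be technical. With 1 B cell file, the line and that library cannot be told apart.

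Lpin1 encodes lipin 1, a phosphatidate phosphatase that makes diacylglycerol for triglyceride synthesis and that is needed for fat cell formation. A bait meets the sites nearest to it most often, and contact falls with distance along the chromosome. Contacts on other chromosomes are rare, so most HindIII sites there have no read in a given file. Active and inactive chromatin tend to lie apart in the nucleus, and which regions are active differs between cell types. In the RefSeq order of protein-coding genes (GRCm38.p6, used here for order only), the genes next to Lpin1 toward lower coordinates are Trib2, Lratd1, Nbas, Ddx1 and Mycn. Toward higher coordinates they are Ntsr2, Greb1, E2f6, Rock2 and Pqlc3. Mycn encodes a transcription factor of the Myc family, Ddx1 an RNA helicase, E2f6 a repressor of the E2F family and Rock2 a kinase of the actin cytoskeleton. Coordinates in the files are of build mm9, of which no annotation was used here, so no window is given a gene.

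The bait was the HindIII site at chr12:16597111-16597116, which had the most reads in all 9 files. Nearer than 10 kb, sites were left out. The B cell file held 1972550 reads, of which 1495773 lay outside that zone. The 3T3-L1 files held 867255 to 3002206 reads, of which 717737 to 2536087 lay outside it. The B cell file spread its reads over more sites than the 3T3-L1 files did. It had 13491 captured sites (at least 1 read) on chromosome 12, against 2327 to 11547 in the 3T3-L1 files. On other chromosomes it had 25817 captured sites, against 3483 to 29804, where day 2 replicate 1 was the only 3T3-L1 file above it. Each captured site on other chromosomes held 14.5 reads in B cells, against 17.3 to 89.5 in 3T3-L1. Numbers of captured sites were therefore matched before capture was compared: reads of each file were drawn in random order until it held as many captured sites as the poorest file, which is day 6 replicate 2. Of the reads outside the zone, 75.0% lay on chromosome 12 in B cells, against 67.0% ± 7.41 (SD, n = 8) in 3T3-L1, and 2 of the 8 files were above B cells (exact permutation p = 0.556, two-sided). The exact permutation test of 1 file against 8 cannot go below p = 0.111, so shares cannot pass a threshold of 0.05, and each is given with the number of 3T3-L1 files on either side.

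Next to the bait, B cells had fewer reads on the high-coordinate side and more on the low-coordinate side. Between 10 and 100 kb on the high side lay 8.38% of chromosome 12 reads in B cells, against 13.4% ± 2.18 in 3T3-L1 (SD, n = 8, range 9.98% to 16.2%). The B cell value was below all 8 files (exact permutation p = 0.111, two-sided). Over the same distance on the low side, B cells had 11.2% of the reads, against 8.94% ± 1.51 in 3T3-L1 (SD, n = 8, range 6.48% to 10.8%). This was above all 8 files (exact permutation p = 0.222, two-sided). With sites capped at the 99th percentile the low-side difference, B cells minus 3T3-L1, turned to -0.645 percentage points and the high-side one was -1.11. Counted as captured sites, the differences were -0.21 on the low side and -0.22 on the high side, and with matching 0.0591 and 0.0806. These are shares of all captured sites of chromosome 12, which were most numerous in B cells. Nearly all sites of this stretch were captured in both lines. B cells had 95.2% of them on the low side, against a mean of 97.6% in 3T3-L1, and 95.7% against 94.0% on the high side. The 100 kb window next to the bait on the high side, at 16.6 to 16.7 Mb, showed the same deficit in the test across all windows. It had 78341 CPM (TMM-scaled counts per 1e+06 reads of the tested windows) in B cells, against 84926 to 183381 CPM in 3T3-L1 with a median of 138640. Its log2 difference was -0.86 ± 0.15 (SE, edgeR quasi-likelihood test, adjusted p = 3.38e-05). Against the single days, which all use the same B cell file, its log2 difference was -0.50 for day 0, -0.80 for day 1, -0.91 for day 2 and -1.21 for day 6. Its adjusted p from edgeR was 1 against day 0 and at most 0.00165 against the other days.

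**Figure D1:**
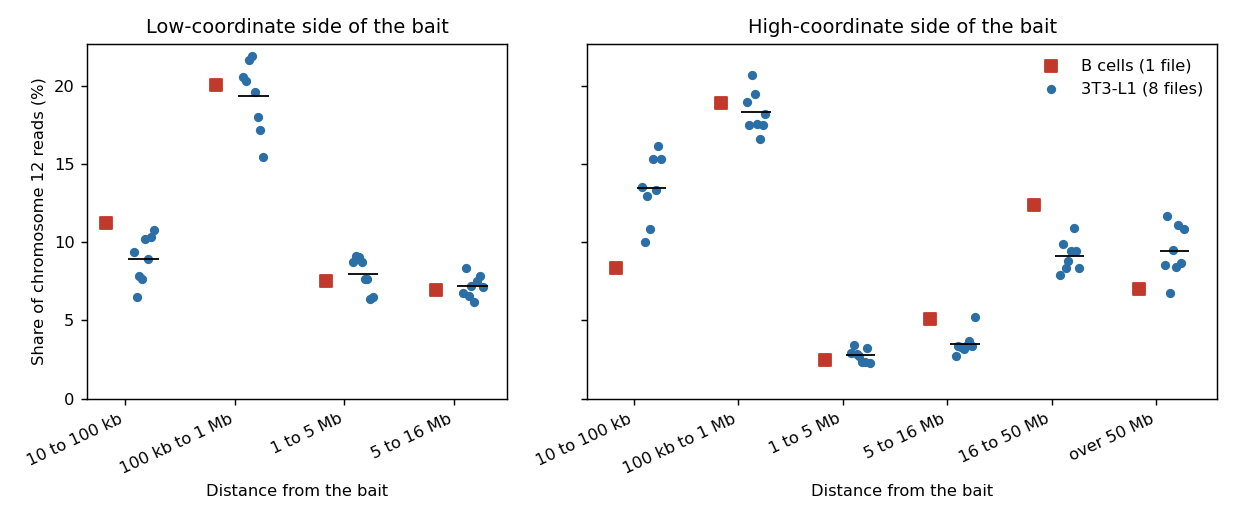
Share of chromosome 12 reads (%) by distance from the bait on each side, for the B cell file (red squares) and the 8 3T3-L1 files (blue points, line at the mean). On the high side the B cell file lay below all 8 files at 10 to 100 kb, with 8.38%, and above all 8 at 16 to 50 Mb, with 12.4%.

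Single HindIII sites showed where these differences sat. Of 41 sites 10 to 100 kb from the bait with at least 0.05% of chromosome 12 reads in some file, the B cell value was beyond all 8 3T3-L1 files at 27, or 65.9%. Among all 432 such sites within 1 Mb it was beyond all 8 at 123, or 28.5%. At any site 1 of the 9 files is highest and 1 is lowest, so part of these counts arises by order alone. A site could also enter through the B cell file alone, with every 3T3-L1 file under 0.05%. Such a site is above all 8 files by the rule itself. On the high side, 10 of the 22 near sites were below all 8 files and summed to 4.13% of reads in B cells, against 10.2% in 3T3-L1. They lay between 39.0 and 93.8 kb from the bait. Since they were picked as lower in B cells, their lower sum follows from the choice. Another 5 high-side sites were above all 8 files and summed to 1.87% in B cells, against 0.056% in 3T3-L1. The other 7 lay within the range and summed to 2.38%, against 3.18%. The site at 16647158, 50 kb out, held 0.966% of chromosome 12 reads in B cells, against 2.56% ± 0.60 in 3T3-L1 (SD, n = 8, range 1.84% to 3.81%). The site at 16670985, 73.9 kb out, held 0.603% in B cells, against 1.43% ± 0.16 (SD, n = 8, range 1.07% to 1.66%). The 10 lower sites were thus spread over this stretch, and none of them was lost in B cells. On the low side 9 of 19 near sites were above all 8 files and 3 were below. The site at 16565919, 31 kb out, was the strongest contact of B cells among the near sites. It held 2.57% of their reads, against 1.08% ± 0.21 in 3T3-L1 (SD, n = 8, range 0.777% to 1.42%).

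Some of these sites were nearly silent in one line. The rule used for them was chosen after the values were seen. It took sites within 1 Mb with at least 0.05% of chromosome 12 reads in one line, at least 10-fold the level of the other by the mean of 3T3-L1, and with B cells beyond all 8 files. It found 28 of 432 sites, or 6.48%. At 26 of them B cells were higher, and these summed to 5.21% of chromosome 12 reads in B cells, against 0.0533% in 3T3-L1 (range 0.0329% to 0.0669%). None of the 26 reached 0.05% in any 3T3-L1 file, so all entered through the B cell file. The gap between the sums thus follows from the choice. B cells were judged by 1 file and 3T3-L1 by a mean of 8, so the 2 directions were not treated alike. The rule was not run on any other single file. The site at 16554433, 42.7 kb from the bait on the low side, had 12923 reads in B cells, against 105 to 201 reads in the 3T3-L1 files. The site at 16611744, 14.6 kb out on the high side, had 11618 reads in B cells, against 3 to 276 in 3T3-L1. The site at 16685267, 88.2 kb out on the high side, had 6026 reads in B cells, against 0 to 4 in 3T3-L1. In no file of 3T3-L1 did any of the 3 come near the B cell share. The other direction held for 2 sites. At 16574726, 22 kb out on the low side, B cells had 130 reads and 3T3-L1 had 1352 to 8142. At 16115685, 481 kb out on the low side, B cells had 37 reads and 3T3-L1 had 307 to 2311.

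What sets these sites apart was not tested. Their weight in the shares was measured by leaving the 28 sites out. The high side from 10 to 100 kb then held 7.10% of reads in B cells, against 13.5% in 3T3-L1, still below all 8 files. The low side from 10 to 100 kb held 10.1% in B cells, against 8.60% in 3T3-L1, and 1 file was then above B cells. The low-side excess near the bait therefore rests in part on these few sites. On the high side, the sites left out within 100 kb were all higher in B cells. The larger deficit there without them thus follows from how the sites were chosen.

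**Figure D2:**
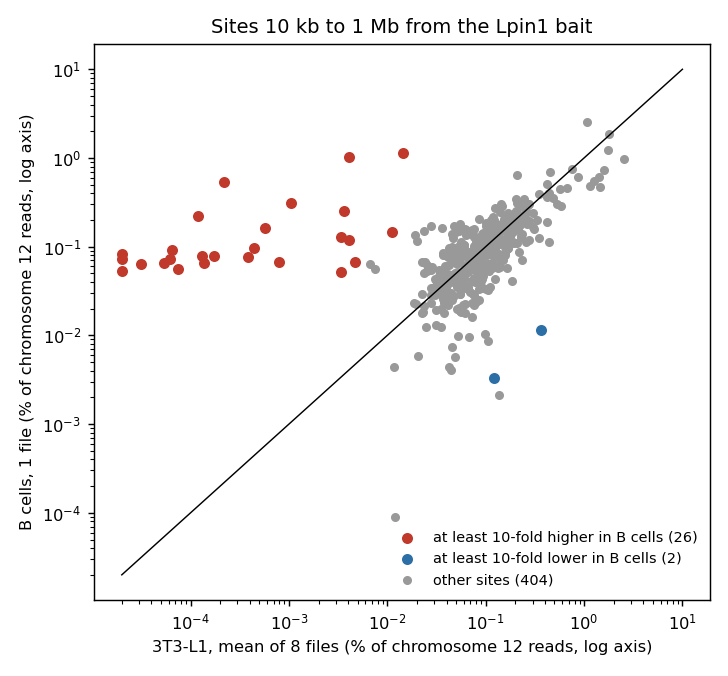
Share of chromosome 12 reads (%, log axes) at 432 HindIII sites 10 kb to 1 Mb from the bait, in B cells (vertical) and as the mean of 8 3T3-L1 files (horizontal), with a line of equality. Red points are 26 sites at least 10-fold higher in B cells and blue points 2 sites at least 10-fold lower, and 3 sites below the axis range in 3T3-L1 are drawn at the left edge.

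Beyond 5 Mb on the high side the order turned. Between 5 and 16 Mb lay 5.11% of chromosome 12 reads in B cells, against 3.51% ± 0.73 in 3T3-L1 (SD, n = 8, range 2.72% to 5.21%). Here 7 files were below B cells and day 6 replicate 2 was above. Between 16 and 50 Mb, B cells had 12.4%, against 9.14% ± 0.98 in 3T3-L1 (SD, n = 8, range 7.90% to 10.9%), above all 8 files (exact permutation p = 0.111, two-sided). Beyond 50 Mb they had 7.02%, against 9.44% ± 1.66 (SD, n = 8, range 6.78% to 11.7%), below 7 of 8. With the number of captured sites matched at 2327 on chromosome 12, the same 3 distances did not overlap between the lines (exact permutation p = 0.111 for each, two-sided). The nearer bands of the high side did overlap. In each band 1 of the 9 files is highest and 1 is lowest, so order alone can leave a band without overlap. The 5 to 16 Mb stretch then held 10.6% of captured sites in B cells, against 7.20% ± 0.75 in 3T3-L1. The 16 to 50 Mb stretch held 25.5%, against 20.9% ± 1.65. The stretch beyond 50 Mb held 15.8%, against 21.7% ± 2.16 (SD, n = 8 for each). In between, from 100 kb to 5 Mb on the high side, the B cell share lay within the 3T3-L1 range, at 18.9% against 18.3% ± 1.32 up to 1 Mb and at 2.49% against 2.76% ± 0.42 from 1 to 5 Mb (SD, n = 8). In reads and in matched capture, the B cell file thus had the larger share 5 to 50 Mb out, against the 3T3-L1 mean, and the smaller one beyond. In captured sites without matching, the difference beyond 50 Mb turned to 1.03 percentage points.

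The balance between the sides depended on what was counted. The low side held 45.7% of chromosome 12 reads in B cells, against 43.4% ± 2.04 in 3T3-L1 (SD, n = 8), above all 8 files. Counted as captured sites it held 22.0% in B cells, against 29.3% ± 4.67, and as matched captured sites 35.6%, against 37.3% ± 1.17 (SD, n = 8 each), below all 8 in both. Over 1 Mb from the bait, where the few strong sites next to it play no part, the low side held 34.8% of reads in B cells, against 38.0% ± 2.93 in 3T3-L1 (SD, n = 8), below 7 of 8. With matching it held 30.7% of the captured sites over 1 Mb away in B cells, against 33.0% ± 1.43 (SD, n = 8), below all 8. The only low-side band whose matched capture did not overlap between the lines was the farthest one, 5 to 16 Mb, with 13.1% in B cells against 14.8% ± 0.62 in 3T3-L1 (SD, n = 8).

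Few 100 kb windows of chromosome 12 separated the lines. Of 1154 windows tested, 2 passed at an adjusted p under 0.05 (0.173%), both lower in B cells, while 69 had an unadjusted p under 0.05. The median log2 difference of all windows was 0.24. Without TMM scaling it was 0.41, and 4 windows passed, 2 higher and 2 lower. One is the window next to the bait given above. The other, at 15.6 to 15.7 Mb on the low side, had 8204 CPM in B cells, against 17375 to 26222 CPM in 3T3-L1 with a median of 22009. Its log2 difference was -1.42 ± 0.29 (SE, edgeR quasi-likelihood test, adjusted p = 0.000458). It stayed past the threshold without each 3T3-L1 file in turn, while the window at 16.6 Mb did not pass without either file of day 1. With each side fitted alone, the same window passed on each side, 1 of 136 on the low side and 1 of 1018 on the high side. Against single days, all with the same B cell file, 0 windows passed for day 0, 2 for day 1 (0.173%), 2 for day 2 (0.173%) and 3 for day 6 (0.26%). DESeq2 called 2, 2, 1 and 73 windows for days 0, 1, 2 and 6, and 18 windows had an unadjusted p under 0.05 in edgeR for day 0. The third window of day 6, at 5.0 to 5.1 Mb, was higher in B cells by 3.99 ± 0.91 on the log2 scale (SE, edgeR, adjusted p = 0.00442).

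In reads against the mean of the 4 days, with TMM scaling, no higher window of 100 kb passed. The smallest p belonged to 115.2 to 115.3 Mb, with 71 reads in B cells and 0 in each 3T3-L1 file, to 21.7 to 21.8 Mb, with 116 reads in B cells and 0 or 1 in 3T3-L1, and to 12.5 to 12.6 Mb, with 3718 reads in B cells and 70 to 2652 in 3T3-L1 (edgeR adjusted p = 0.409 for each). In number of captured sites, unmatched, 7 of 566 windows passed (1.24%), 6 of them higher in B cells. Neighbouring windows at 18.4 and 18.5 Mb each had 18 captured sites in B cells, against 1 to 3 and 0 to 3 in the 3T3-L1 files.

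Over 1 Mb windows, which hold more sites each, 11 of 119 passed in reads (9.24%), 7 higher and 4 lower in B cells. In matched captured sites 16 of 104 passed (15.4%), 12 higher and 4 lower, where the median log2 difference of all windows was -0.11. Without TMM scaling that median was -0.22, and 18 passed, 9 higher and 9 lower. Another random draw of reads gave 18, 10 higher and 8 lower. The 2 units shared 7 windows, all in the same direction, which is 63.6% of those called in reads and 43.8% of those called in captured sites. The count in reads fell to 2 or 3 without any 1 file of days 0, 1 and 2, and was 23 and 17 without day 6 replicates 1 and 2. In captured sites it was 11 to 20 without each file. These 1 Mb windows were added after the data were seen. The calls lay by distance as the shares did, which come from the same reads and sites. Of the 12 higher windows in matched capture, 9 lay 1 to 50 Mb from the bait on the high side, where none was lower. That stretch held 44 of the 104 windows tested. Of the 4 lower windows, 3 lay beyond 50 Mb on that side, and B cells had the lower value in 36 of the 45 windows tested there. In reads, the median log2 difference was 0.91 over the 15 windows 1 to 16 Mb out, 0.30 over the 34 windows 16 to 50 Mb out and -0.41 over the 55 windows beyond, against 0.09 over all windows.

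Drawing captured sites themselves at random, in place of reads, to the same number gave 0 of 112 windows past the threshold in edgeR and 18 at an unadjusted p under 0.05. Of the 16 windows called above, 11 kept their sign under that draw. DESeq2 called 2 of the 104 windows. Drawing reads keeps the sites with many reads, and drawing sites gives all captured sites the same weight. In that random draw no window of 1 Mb passed, whereas the unmatched captured sites above gave calls at 100 kb.

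**Figure D3:**
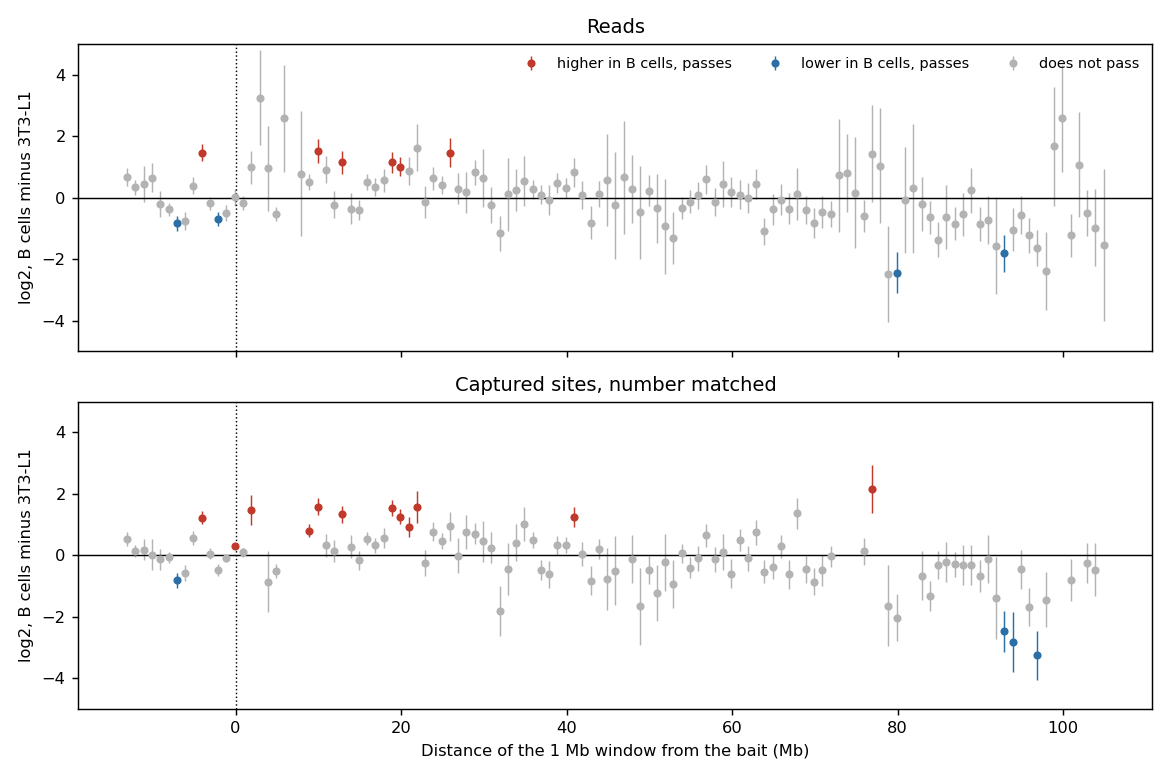
Log2 difference, B cells minus 3T3-L1, with its SE from edgeR, in 1 Mb windows of chromosome 12 by distance from the bait (Mb), for reads (above) and for matched captured sites (below). Of the windows that passed in captured sites, 9 of 12 higher ones (red) lie 1 to 50 Mb out on the high side and 3 of 4 lower ones (blue) beyond 50 Mb. Of the 104 windows tested in captured sites, 44 and 45 lie in these stretches. A window with 187 B cell reads against at most 6 is off the scale of the upper panel.

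The low side carried an isolated exchange. The window at 12 to 13 Mb, 4 Mb from the bait, had 14822 CPM in B cells, against 3678 to 6718 CPM in 3T3-L1 with a median of 5612 (log2 difference 1.46 ± 0.27 SE, edgeR, adjusted p = 3.61e-05). It had 65 matched captured sites in B cells, against 21 to 37 in 3T3-L1. In 2 of 14 alternative fits of matched capture it did not pass, and its log2 difference ranged down to 0.16. Before matching, its captured share was 24.3 times the mean of other chromosomes in B cells, against 22.7 ± 6.40 times in 3T3-L1 (SD, n = 8). There 3 files were above B cells. The window at 9 to 10 Mb had 7175 CPM in B cells, against 9431 to 19152 CPM (log2 difference -0.83 ± 0.24 SE, edgeR, adjusted p = 0.0234). It had 32 matched captured sites in B cells, against 52 to 69. Neither pair overlapped. The window at 14 to 15 Mb was lower in B cells in reads, with 9922 CPM against 12277 to 21244 CPM in 3T3-L1 (edgeR adjusted p = 0.0259), and not past the threshold in captured sites (adjusted p = 0.0763). In reads, the windows at 9 and 14 Mb each lost their call in 6 of the 8 fits without 1 3T3-L1 file. In 500 kb windows of the low side alone, 6 of 28 passed (21.4%). B cells were lower at 9.5 to 10.5 Mb, 14 to 14.5 Mb and 15.5 to 16 Mb and higher at 12.5 to 13 Mb and 16 to 16.5 Mb. On this side, windows higher and lower in B cells thus lay within a few Mb of each other.

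On the high side, B cells were higher at 26 to 27, 29 to 30 and 35 to 37 Mb in reads and in matched capture. At 35 to 36 Mb B cells had 47 matched captured sites, against 13 to 24 in 3T3-L1 with a median of 18 (log2 difference 1.53 ± 0.26 SE, edgeR, adjusted p = 4.28e-06). The next window, 36 to 37 Mb, had 50 in B cells, against 19 to 27. At 26 to 27 Mb there were 41 in B cells, against 10 to 25. At 29 to 30 Mb there were 39, against 8 to 27. In reads, the same 4 windows were higher in B cells by 1.15, 1.01, 1.52 and 1.16 on the log2 scale, each past the threshold in edgeR. Without each 3T3-L1 file in turn, the window at 26 Mb lost its call in reads in 4 of 8 cases and those at 35 and 36 Mb in 6 of 8, and none of the 3 did in captured sites. With captured sites drawn at random, the log2 differences at 26, 35 and 36 Mb were 0.52, 0.35 and 0.18, none past the threshold in edgeR, and that at 29 Mb turned to -0.14. With another draw of reads the window at 29 Mb, too, was not past it (log2 difference 0.64, edgeR adjusted p = 0.142). Between 23 and 24 Mb B cells had 187 reads, and the 3T3-L1 files had 0, 0, 6, 5, 0, 2, 1 and 0. That stretch had almost no reads in 3T3-L1.

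At the far end the losses were deep but rest on few captured sites. At 109 to 110 Mb B cells had 674 CPM, against 1688 to 4873 CPM in 3T3-L1 (log2 difference -1.82 ± 0.60 SE, edgeR, adjusted p = 0.032). They had 2 matched captured sites there, against 7 to 17. At 113 to 114 Mb there was 1 in B cells, against 5 to 21 (log2 difference -3.26 ± 0.81 SE, edgeR, adjusted p = 0.00423), and at 110 to 111 Mb there was 1, against 4 to 13. Before matching, captured sites in B cells lay within the 3T3-L1 range in these 3 windows. B cells had 67 at 109 Mb, 54 at 110 Mb and 60 at 113 Mb, against 12 to 82, 5 to 56 and 14 to 94. At 113 Mb this was 6.74 times the mean of other chromosomes in B cells, against 11.4 ± 2.28 times in 3T3-L1 (SD, n = 8), below all 8 files. At 96 to 97 Mb B cells had 298 CPM, against 1260 to 1893 CPM (log2 difference -2.44 ± 0.67 SE, edgeR, adjusted p = 0.0133). In these values, of reads or of matched capture, no 3T3-L1 file was as low as B cells. In reads, the call at 109 Mb was lost in 6 of the 8 fits without 1 3T3-L1 file and that at 96 Mb in 3. With sites drawn at random, the window at 110 Mb turned to 0.56 on the log2 scale.

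The lists of the 5 windows richest in captured sites shared 2 windows between the lines on each side. On the low side over 1 Mb away, the 100 kb window at 15.5 Mb had the highest captured share in both lines, 97.4% of its 39 sites in B cells and 90.4% ± 6.82 in 3T3-L1 (SD, n = 8). The window at 13.2 Mb was also among the top 5 in both, with 96.4% and 80.8% ± 13.4 (SD, n = 8). On the high side, 17.6 Mb led in 3T3-L1, with 96% in B cells and 90.5% ± 10.5 in 3T3-L1 (SD, n = 8), and 21.4 Mb was in both top 5 lists. The window at 33.6 Mb led in B cells with 96.7%, against 45.8% ± 17.2 in 3T3-L1 (SD, n = 8). These shares are not matched for the larger number of captured sites in B cells.

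How alike the whole profiles were is given by the Spearman correlation across windows, as a description, since neighbouring windows share reads and depth. Over 1150 windows of 100 kb, with reads thinned to 405434 a file, B cells had a mean correlation of 0.68 with the 8 3T3-L1 files (0.59 to 0.78). The 28 pairs of 3T3-L1 files had 0.67 (0.53 to 0.83). At that scale, in reads, the B cell profile was as close to a 3T3-L1 file as these files were to each other. Over 237 windows of 500 kb, thinned reads gave 0.80 (0.70 to 0.89) for B cells, against 0.84 (0.74 to 0.94) among 3T3-L1 files. Matched captured sites gave 0.75 (0.70 to 0.81), against 0.83 (0.78 to 0.88), so the likeness did not hold there. Over 500 kb windows of the low side beyond 1 Mb (n = 25), B cells reached 0.66 (0.52 to 0.76), against 0.88 (0.72 to 0.96) among 3T3-L1 files. With matched captured sites the same windows gave 0.68 (0.56 to 0.75) for B cells, against 0.90 (0.77 to 0.95). On the high side beyond 50 Mb (n = 110), matched capture gave 0.57 (0.48 to 0.65), against 0.72 (0.64 to 0.81). From 1 to 50 Mb on that side (n = 98) it gave 0.78 (0.71 to 0.82), against 0.83 (0.77 to 0.88). Set against the pairs of 3T3-L1 files, the gap of B cells was widest on the low side, while their lowest correlation in matched capture was that beyond 50 Mb on the high side.

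**Figure D4:**
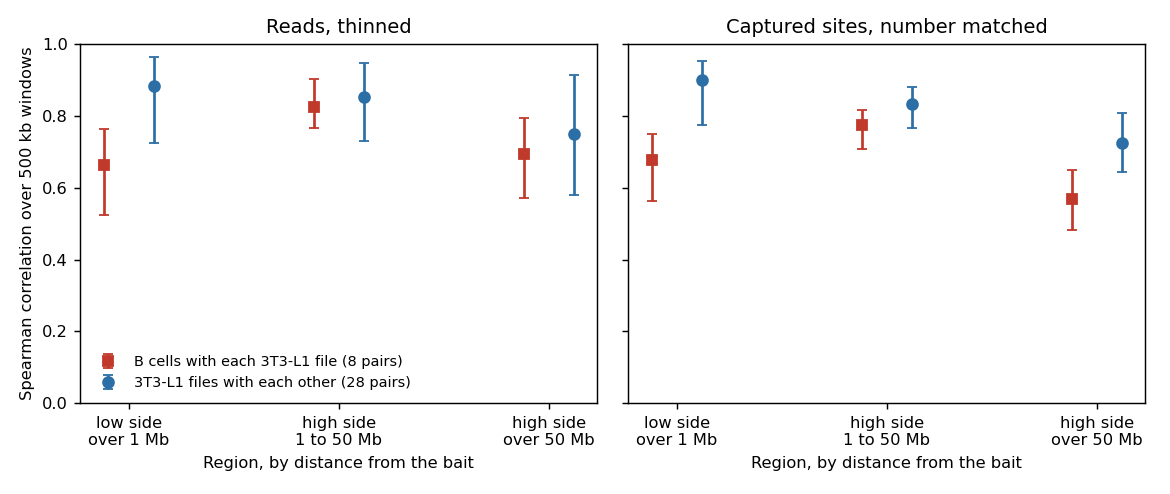
Spearman correlation over 500 kb windows by region, for B cells with each 3T3-L1 file (red squares, 8 pairs) and 3T3-L1 files with each other (blue points, 28 pairs), as mean with lowest and highest, for thinned reads (left) and matched captured sites (right). On the low side the B cell mean was 0.66 and 0.68, against 0.88 and 0.90 among 3T3-L1 files.

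On other chromosomes, the spread of captured sites over whole chromosomes was compared after matching to 3483 sites a file. B cells were beyond all 8 files on 13 of 19 chromosomes (68.4%), a count to which order alone adds, as for the sites near the bait. In the test 4 of 19 passed (21.1%), 1 higher and 3 lower. Without TMM scaling 5 were higher and 3 lower, and with another draw of reads 3 were higher and 2 lower. Chromosome 6 was lower, with 202 matched captured sites in B cells, against 291 to 327 in 3T3-L1 with a median of 302 (log2 difference -0.65 ± 0.12 SE, edgeR, adjusted p = 6.33e-06). Chromosome 2 was lower, with 207 in B cells against 246 to 296 (log2 difference -0.44 ± 0.13 SE, adjusted p = 0.00916, edgeR). Chromosome 8 was lower, with 154 in B cells against 175 to 222 (log2 difference -0.35 ± 0.12 SE, adjusted p = 0.0259, edgeR). Chromosome 3 was higher, with 216 in B cells against 157 to 179 (log2 difference 0.30 ± 0.08 SE, adjusted p = 0.0294, edgeR). Chromosome 6 carries the Pparg bait, and away from it the difference remained. More than 5 Mb from that bait B cells had 186 matched captured sites, against 269 to 298 in 3T3-L1. Chromosomes 2 and 6 passed without each 3T3-L1 file in turn, and chromosomes 3 and 8 each lost their call in 2 of 8 cases. With another draw of reads, chromosomes 2 and 3 lost theirs (edgeR adjusted p = 0.155 and 0.495). DESeq2 and the random draw of captured sites each called chromosome 6 alone of these 4. For chromosome 3 the log2 difference ranged down to 0.03, with at least 2 reads a site, and in the matched fit of all 27 files described below it turned to -0.13 for Lpin1 (edgeR adjusted p = 0.438).

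In 2 Mb windows of the other chromosomes, 4 of 520 passed (0.769%). The one of smallest p lay on chromosome 10 at 116 to 118 Mb. It was the window of highest captured share in 3T3-L1, at 11.7% of 630 sites in B cells and 13.9% ± 4.99 in 3T3-L1 (SD, n = 8) before matching. After matching it had 4 captured sites in B cells, against 23 to 42 in 3T3-L1 with a median of 34 (log2 difference -3.02 ± 0.33 SE, edgeR, adjusted p = 2.57e-07). Its call held without each 3T3-L1 file. It was lost without matching (edgeR, adjusted p = 0.0603), with sites drawn at random (edgeR, adjusted p = 0.715) and in DESeq2 (adjusted p = 1), each time with B cells lower. The window holds the Ifng bait site, at chr10:117870359-117870364, which had 0 reads in all 9 files. Within 250 kb of it, B cells had 0 matched captured sites and 3T3-L1 had 0 to 2. Farther out in the window B cells had 4, against 23 to 40 in 3T3-L1. Within 1 Mb of the Ifng bait B cells had 4 matched captured sites and 330 reads, against 23 to 34 sites and 4618 to 9964 reads in 3T3-L1. Whether that bait has a part in the difference was not tested. Reads farther than 250 kb from it in the window numbered 329 in B cells, against 4794 to 10126 in 3T3-L1, while captured sites before matching numbered 73, against 38 to 121. The number of sites B cells touched in the window thus lay within the 3T3-L1 range, with far fewer reads in all. Over the rest of chromosome 10, more than 1 Mb from the Ifng bait, B cells had 181 matched captured sites, within the 141 to 203 of 3T3-L1. The 3 higher windows had 10 to 12 captured sites in B cells. Their 3T3-L1 means of 2.125 to 2.25 were below the filter, a mean of at least 3, so they entered the test through the B cell count. They lay at 14 to 16 Mb of chromosome 9 (12 in B cells, against 0 to 4), 20 to 22 Mb of chromosome 13 (10, against 0 to 5) and 10 to 12 Mb of chromosome 11 (10, against 0 to 4), with edgeR adjusted p of 0.00814, 0.0382 and 0.0382. Without 1 file each of these could lose its call, in 1 of 8, 5 of 6 and 6 of 6 fits that held the window.

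Windows of 5 Mb gave 16 of 454 past the threshold (3.52%), 7 higher and 9 lower in B cells. All 3 on chromosome 6, and 3 of the 4 on chromosome 2, were lower. At 85 to 90 Mb of chromosome 6, B cells had 1 matched captured site, against 13 to 23 in 3T3-L1 (log2 difference -3.96 ± 0.83 SE, edgeR, adjusted p = 0.000417). At 10 to 15 Mb of chromosome 2 they had 23, against 3 to 9. These windows hold the same matched sites as the counts of whole chromosomes, so they show where the differences lay, and 1 stretch of chromosome 2 ran the other way.

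Whether the lines differ on other chromosomes in a way particular to the Lpin1 bait was tested against the other baits in the same 2 lines. In 376 windows of 2 Mb, the difference between B cells and 3T3-L1 for Lpin1 was set against the mean of that for Pparg and Ifng in 1 fit over all 27 files, matched to 2917 captured sites. No window passed in edgeR (0 of 376, 0%), where 53 had an unadjusted p under 0.05, nor in DESeq2. Chromosomes 6, 10 and 12, which carry the baits, were left out. The lower window of chromosome 10 given above was thus not tested, and the 3 higher windows given above were not among the 376. The fit therefore cannot tell whether those windows are particular to Lpin1. Of 17 chromosomes, none passed either. The smallest adjusted p in edgeR was 0.0551, for chromosomes 13 and 19. On chromosome 8 the log2 difference was -0.47 for Lpin1 (adjusted p = 0.00283, edgeR), -0.06 for Pparg and -0.44 for Ifng (adjusted p = 0.0032, edgeR), so in this fit the lower count of B cells passed with 2 baits. Unmatched, as a multiple of the mean of other chromosomes, B cells were below all 8 files there with each of the 3 baits. Pparg had 1.06 times in B cells, against 1.15 ± 0.06 times in 3T3-L1 (SD, n = 8). At 116 to 118 Mb of chromosome 10, Pparg too was captured less in B cells, at 3.44 times the mean of other chromosomes, against 8.44 ± 3.08 times in 3T3-L1 (SD, n = 8), below all 8 files. For Lpin1 these multiples, over all captured sites, were 3.57 times in B cells and 9.49 ± 2.78 times in 3T3-L1 (SD, n = 8). Chromosome 6 could be read with Ifng, and gave 1.56 times in B cells, against 1.89 ± 0.26 times in 3T3-L1 (SD, n = 8), below 7 of 8. For chromosome 2 the unmatched multiples differed between baits in direction. With Ifng it had 1.09 times in B cells, against 0.960 ± 0.06 times in 3T3-L1 (SD, n = 8), above all 8, where Lpin1 had 0.928 times, against 1.05 ± 0.03 times. In the matched fit its log2 difference was 0.02 for Ifng (adjusted p = 0.936, edgeR) and -0.42 for Lpin1, and the difference between baits did not pass (adjusted p = 0.0773, edgeR). The far end of chromosome 12 differed from bait to bait, over all captured sites. At 109 to 110 Mb, Ifng had 2.06 times in B cells, against 0.749 ± 0.33 times in 3T3-L1, and Pparg had 2.54 times in B cells, against 1.84 ± 0.62 times in 3T3-L1 (SD, n = 8 each), both above all 8 files. Lpin1 was below 6 of 8 files there, at 7.18 times in B cells, against 10.5 ± 2.84 times (SD, n = 8). At 110 to 111 Mb, Ifng was above all 8 files, with 1.25 times in B cells, against 0.626 ± 0.18 times, and Pparg below all 8, with 1.13 times, against 2.77 ± 1.41 times (SD, n = 8 each). At 113 to 114 Mb, Pparg had 4.57 times in B cells, against 1.98 ± 0.53 times (SD, n = 8), above all 8. The Pparg and Ifng values rest on 3 to 12 captured sites in B cells, and the difference between baits was not tested on chromosome 12.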

How the data were processed

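The authors deposited counts, that is, raw read numbers for 823355 HindIII sites in each file, not normalised. Per the submitters' processing notes, Bowtie and mm9 were used; read filters and removal of PCR duplicates are not given in the sources used here. The Lpin1 files with B cells and 3T3-L1 were grouped by label. Tests used the robust quasi-likelihood fit of edgeR 4.0.16 (R 4.3.3) with TMM scaling and 5 groups, contrasting B cells with the average of days 0, 1, 2 and 6, at a Benjamini-Hochberg threshold of 0.05, after filterByExpr on chromosome 12 and a mean of at least 3 captured sites in windows elsewhere. The 1 B cell file is assumed to vary like the 3T3-L1 files. In several fits of captured sites, among them the main matched one over 1 Mb windows, the common dispersion sat at its floor. Their p-values thus rest on the quasi-likelihood spread. In the unmatched fit of captured sites over 100 kb windows of chromosome 12 it was 0.00715. Shares were compared by enumerating the 9 choices of 1 file. The fits were tested on simulated data. DESeq2 1.42.0 was an alternative. In each direction the text may name 5 passing windows of smallest p in which B cells lie beyond all 8 files (3 where none passes), and the 5 of highest captured share; windows named from the 5 Mb, 500 kb and captured-site fits, and single sites, were chosen after their values were seen. Replicate numbers are not known to pair files across days. Bait, members and lists were chosen with earlier results of these data known.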

Additional observations from a re-analysis of the deposited data

Results flagged for a closer look

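Single 3T3-L1 files stood apart from the other 7 in 6 of 41 sets of values checked, by the gap to the nearest file against the range of the 8. Chance gives about 1 in 20. Of the 6, 3 were day 6 replicate 2, the shallowest file. It held 5.21% of chromosome 12 reads at 5 to 16 Mb on the high side, the only 3T3-L1 file above B cells there. In 1 Mb windows it had 1022 reads at 36 to 37 Mb, the lowest of the 8 after scaling, and 1827 reads at 109 to 110 Mb, the highest. Day 6 replicate 1 had 7 matched captured sites at 109 to 110 Mb, the lowest of the 8, still above the 2 of B cells. Day 1 replicate 1 had 25 at 26 to 27 Mb, the highest, below the 41 of B cells. Day 0 replicate 1 had 222 matched captured sites on chromosome 8, the highest, against 154 in B cells.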

How the results depend on the processing

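Differences here are B cells minus 3T3-L1, in percentage points for shares, and causes of the shifts were not tested. Counting captured sites in place of reads turned several: the chromosome 12 share to -2.74 (8.05 in reads), the low-side share to -7.29 (2.27), low-side bands to -0.21 at 10 to 100 kb and -2.57 at 100 kb to 1 Mb, and high-side bands to -1.94 at 100 kb to 1 Mb, 0.20 at 1 to 5 Mb and 1.03 over 50 Mb. The low-side share over 1 Mb went to -6.26 (-3.14). Band shares in captured sites are of all those on chromosome 12, which were most numerous in B cells. Of the HindIII sites 100 kb to 1 Mb out, B cells captured 96.2% on the low side, against a mean of 88.0% in 3T3-L1. On the high side they captured 96.5%, against 86.6%, above all 8 files on both sides. The low-side share was also negative with a 100 kb zone (-1.49), with sites capped at the 99th percentile (-0.74) and with matching (-1.72). Capping gave -0.645 for the low side at 10 to 100 kb and -1.72 for the high side at 100 kb to 1 Mb, where the 100 kb zone gave -0.0808. Matching gave 0.0806 for the high side at 10 to 100 kb, leaving out day 6 gave -0.304 for the low side at 100 kb to 1 Mb, and leaving out the 28 sites gave 0.0643 for the low side at 5 to 16 Mb. Without 1 file each, the share differences kept their sign, at 6.56 to 9.44, 1.76 to 2.55 and -3.73 to -2.53.

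Of 100 kb windows, 2 passed, 0 with 2 groups in place of 5 (38 at an unadjusted p under 0.05 in edgeR), 0 with a 1 Mb zone (60), 7 in captured sites, 4 unscaled, 1 without day 6, and 1 to 5 without 1 file. Wider windows gave 4 at 500 kb and 11 at 1 Mb. On the low side 1 passed, and 0 with 2 groups, with a 1 Mb zone or in captured sites (7, 8 and 14 unadjusted), 6 at 500 kb, 3 at 1 Mb, 3 thinned, 4 unscaled, 7 without day 6, and 1 to 20 without 1 file. The high side gave 1, and 0 with 2 groups, with a 1 Mb zone, at 500 kb or without day 6 (30, 50, 24 and 51 unadjusted), 8 at 1 Mb, 7 in captured sites, 2 in DESeq2 and 0 to 2 without 1 file (0 without day 1 replicate 1 or 2). Against single days, captured sites gave 2 for day 0 and 0 for day 1 (35 unadjusted), and DESeq2 gave 2, 1 and 73 for days 0, 2 and 6. In matched 1 Mb windows 16 passed, 0 with sites drawn at random, 2 in DESeq2, 28 without day 6 and 11 to 20 without 1 file. In reads 11 passed, 3 with 2 groups, 7 unscaled, 17 without day 6 and 2 to 23 without 1 file. The random draw turned 2 of the windows given above, 29 Mb to -0.14 and 110 Mb to 0.56.

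Of other chromosomes 4 passed, 1 under the random draw or in DESeq2, 8 unscaled and 2 to 6 without 1 file (2 without day 2 replicate 1). Of their 2 Mb windows 4 passed, 44 without matching (5 at 500 kb), 0 under the random draw or in DESeq2 (60 and 9 unadjusted), 1 with another seed, with at least 2 reads a site or in reads, 2 with 2 groups, with a mean of 1 or at 500 kb, 16 at 5 Mb, 29 without day 6 and 1 to 4 without 1 file. Lpin1 against the other baits gave 0 windows, 2 without matching, 1 at 5 Mb and 1 without day 6, and 0 chromosomes, 4 without matching and 2 without day 6. In similarity, B cells minus pairs of 3T3-L1, reads gave 0.0026 for chromosome 12, captured sites -0.0057, 500 kb windows -0.036 and matching -0.074. Beyond 1 Mb these were -0.0054, -0.038 and -0.078, and on the high side at 1 to 50 Mb -0.0083, -0.028 and -0.058. Over 50 Mb captured sites gave 0.015. The replicate block gave 2 windows of 100 kb, 13 of 1 Mb in reads, 5 chromosomes and 5 windows of 2 Mb, and changed no other call. Files of one number are not known to share a culture.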
